A study of Homo sapiens with 52 samples.

Results

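Genes that span 500 kb or more of the genome were followed through a panel of compounds in rhabdomyosarcoma cells. The members were chosen by length alone: each gene row whose end minus start was 500000 bp or more entered, apart from rows whose names begin with MIR, COL, ZNF, PCDHA or PCDHG and apart from ALK and HDAC9. The rule found 464 of the 27043 gene rows, out of 551 that were long enough. No expression value was used to choose them. The smallest members were AFF2 (500.1 kb) and SPOCK3 (501.2 kb), and just outside lay DIAPH3 (498.4 kb) and CPQ (498.3 kb).

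All 52 samples came from fusion-positive rhabdomyosarcoma (FP-RMS) cells, a childhood muscle tumour type, carrying the PAX3-FOXO1 fusion. In the screen, 20 compounds were given for 6 h, each as 1 high-dose and 1 low-dose sample 10-fold apart, beside 4 samples given only the solvent DMSO, of which 2 were at 0.2% and 2 at 0.1%. High and low doses were 10 and 1 µM, or 5 and 0.5 µM for LAQ824, Cpd50 and GSKJ4. Separate experiments set 1 µM N1302 at 6 h against 1 DMSO sample, and 1 µM entinostat at 1, 6 and 24 h against 1 DMSO sample at each time. By the drug targets in the labels, 7 compounds act on histone acetylation: LAQ824 (HDAC), WT161 (HDAC6), Merck60 (HDAC1/2), MC1568 (HDAC4/5), OJI-1 (HDAC8), Bromosporin (bromodomains) and SGC-CBP30 (the CREBBP/EP300 bromodomain). A further 11 act on histone methylation: UNC0638 (KMT1C), PFI-2 (SETD7), SGC0946 (DOT1L), EZ-005 (EZH2), UNC1999 (EZH1), GSKLSD1, LSD-519 and LSD-690 (LSD1), Cpd50 (Jumonji demethylases), GSKJ4 (JMJD3/UTX) and UNC-1215 (L3MBTL3). PFI-3 (SMARCA4) and Trametinib (MEK1/2) were placed in neither set by these labels, and N1302 and entinostat inhibit histone deacetylases (HDACs). The cell-line label of every sample is RH4, a single FP-RMS line, while the titles of the screen samples read RH41. The labels do not say that samples of 1 group came from separate cultures, so p-values measure the spread between these samples, which may be technical. The 2 samples of a compound are its 2 doses, so this spread also holds dose differences, pooled per gene over all compounds. The standard error (SE) of a gene is therefore the same in every compound, such as 0.49 for IL1RAPL2, and does not describe the samples of 1 compound alone. The same 4 DMSO samples served every compound of the screen, so the comparisons are not independent of each other.

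A gene of this length consists almost wholly of introns, and RNA polymerase II needs hours to cross it before a full transcript can be spliced and polyadenylated. Topoisomerases, the kinase P-TEFb and its partners, and splicing factors are known to help the polymerase through long introns. In vertebrates very long genes are concentrated in neurons and muscle, where they encode adhesion molecules, synaptic receptors, receptor tyrosine phosphatases and the dystrophin protein, and several lie in common fragile sites. The values here are from poly-A RNA, so they count finished transcripts and not polymerase on the gene.

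Reads worked out from the deposited values came to 5737939 to 41415071 per sample, with a median of 15055060. The myogenic markers MYOD1 (48.5 to 648 TPM) and MYOG (32.2 to 1287 TPM) were present in every sample, as were DES (188 to 768 TPM) and FGFR4 (389 to 1339 TPM). The lowest values of the myogenic markers MYH3, MYH8 and PAX3 were 2.24, 1.08 and 1.19 TPM. Markers of other cell types were low: PTPRC (blood) reached 0.165 TPM, EPCAM (epithelium) 0.513 TPM, PECAM1 and CDH5 (endothelium) 0.83 and 1.78 TPM, GFAP (glia) 1.60 TPM and ALB (liver) 2.99 TPM at most. The medians of CDH5 and ALB were 0.02 and 0.434 TPM. In such bulk RNA fewer cells of a type and less RNA per cell cannot be told apart. The file names place 28 screen samples, those of 14 compounds, on 1 flow cell that holds no DMSO sample. The samples of GSKLSD1 and UNC-1215 lie on another flow cell without a DMSO sample. For all these compounds the flow cell and the treatment cannot be told apart except by comparison within the same flow cell.

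Of the 464 members, 133 were listed at 0 in all 52 samples and another 121 were above 0 in some sample without reaching the level needed for a test (1 TPM in 2 samples). The other 210 were tested among 16359 genes. A member that passed only because a treatment raised it counts among these 210, so the 210 are not all members. Among the tested members 190 are matched to a gene that also spans 500 kb or more in GENCODE or RefSeq, and 185 are protein coding. The remaining 20 rows, such as RNU6-2, BMS1P22, LOC103908605 and the NBPF rows, have no such span in either annotation, and their values are uncertain because near-identical copies share reads. The 190 had a median span of 715.4 kb, and the longest was PTPRD (2298.5 kb). Chromosome 3 holds the most tested members (26), followed by chromosomes 7 (16), 4 (15) and 6 (15).

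Long genes were expressed at modest levels in the untreated cells. The tested members had a median of 6.02 TPM in the screen DMSO samples, against 28.09 TPM for the 3667 tested genes of 20 to 50 kb. TPM is a level per transcript length, so the 2 values can be compared between genes. The 160 members with at least 1 TPM in DMSO had a median of 325.5 reads in the DMSO sample where they were lowest. For the 146 of these with a long annotated gene, mature transcripts were longer too, with a median of 6975 bp and 19 exons against 3910 bp and 9 exons for the shorter genes. Promoters were alike in base composition, with a median GC content of 66.0% and 26 CpG sites for the members and 65.67% and 27 for the shorter genes.

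The 10 highest members in DMSO were led by CDH13, a cadherin anchored to the membrane by a lipid, at 163.6, 163.7, 159.1 and 162.4 TPM, in the order 0.2% DMSO replicates 1 and 2, then 0.1% DMSO replicates 1 and 2. PRKCA, a protein kinase C, followed with 144.4, 141.3, 151.1 and 146.2 TPM. SORCS1, a sorting receptor, averaged 129 ± 3.38 TPM and CDH4, another cadherin, 126 ± 1.23 TPM (SD, n = 4). DOCK1 (98.8 ± 2.51 TPM) and ELMO1 (82.6 ± 3.03 TPM) encode proteins that act together as an activator of the small GTPase RAC1. CELF2, a splicing regulator, averaged 93.1 ± 3.00 TPM, ROBO1, a receptor for the guidance protein Slit, 88.0 ± 1.53 TPM, CDK14, a cyclin-dependent kinase, 84.9 ± 2.90 TPM and FAF1, an adaptor in protein degradation, 83.0 ± 3.92 TPM. CDH13 and PRKCA stand apart from their neighbours by more than the spread between samples, while the last 4 of these 10 lie within a few TPM of each other. Of all members, 20 reached 50 TPM or more.

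How far all the long genes moved together was measured by a gap: the median over the members with 1 TPM or more of their change in log2(TPM + 1) from the DMSO samples of the same dose level, minus the change of 20 to 50 kb genes of similar DMSO level. In the screen it covers 160 members and 3219 shorter genes. It is a description with no test. Between DMSO replicates the gap was 0.0008 at 0.2% and -0.0006 at 0.1%, although these replicates lie on different flow cells. Between 0.2% and 0.1% DMSO it was -0.06 and -0.05. The SD between the 2 doses of a compound was 0.09.

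The long genes lay below shorter genes of similar level in 4 acetylation compounds, and furthest in LAQ824, where the gap was -0.48 at the high dose and -0.49 at the low dose. There 74.4% and 76.2% of the members lay below the shorter genes of similar level. The gaps were -0.31 and -0.24 in WT161, -0.36 and -0.17 in SGC-CBP30, and -0.10 and -0.28 in Bromosporin. Part of these gaps was a rise of the shorter genes of similar level. In LAQ824 the members' median change was -0.30 and -0.26, and that of the shorter genes 0.20 and 0.22. The members changed by -0.09 and -0.14 in WT161, against 0.19 and 0.12. For SGC-CBP30 the values were -0.27 and -0.10, against 0.11 and 0.07. In Bromosporin the smaller gap at the high dose came with a median change of -0.30 in the shorter genes of similar level, against -0.03 at the low dose, while the members changed by -0.37 and -0.30. Averaged over both doses and counted only for spans of 1000 kb or more, the gap was -0.29 in LAQ824, -0.13 in WT161 and -0.14 in SGC-CBP30, but 0.11 in Bromosporin, against -0.19 over all its members. The other acetylation compounds gave values of either sign: 0.10 and 0.01 in Merck60, 0.02 and -0.04 in MC1568, and 0.01 and -0.19 in OJI-1. Over the methylation compounds the gap averaged 0.06, against -0.18 over the acetylation compounds. PFI-3, labelled for SMARCA4 and counted in neither mean, had gaps of 0.09 and 0.06. WT161, SGC-CBP30, Bromosporin, Merck60 and OJI-1 share the flow cell of 14 compounds, which holds no DMSO sample, with most methylation compounds. The part of the flow cell in the gaps was not tested. LAQ824 and MC1568 were sequenced together on 1 flow cell that also holds a DMSO sample of each concentration, and at the high dose their gaps were -0.48 and 0.02.

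**Figure D1:**
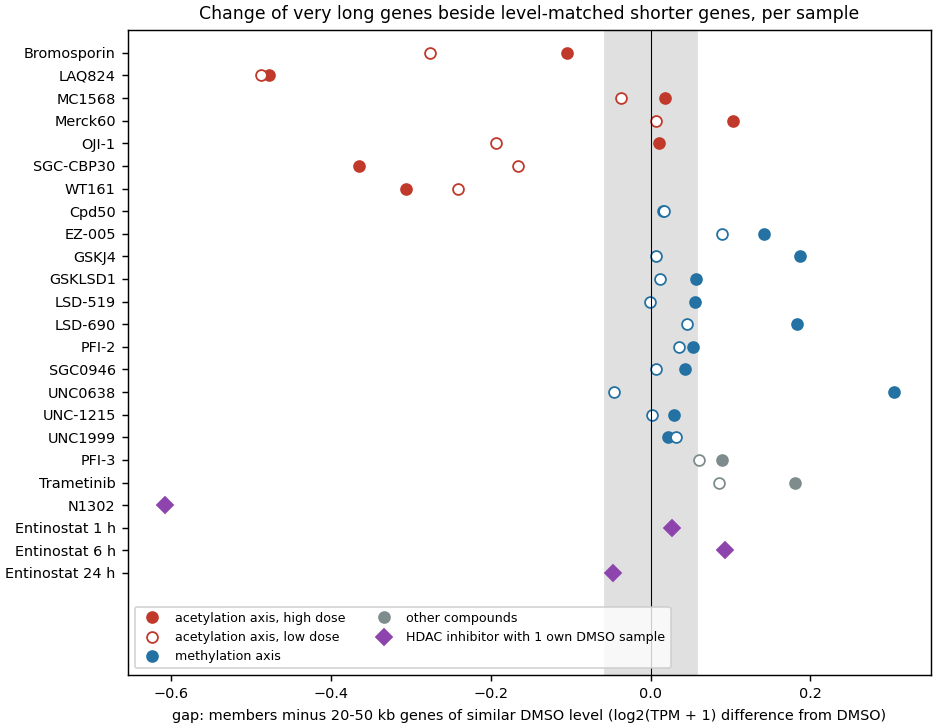
The gap (horizontal axis, difference in log2(TPM + 1)) of each treated sample is plotted by compound, with filled circles for high and open circles for low doses, diamonds for samples with 1 DMSO sample of their own, and a grey band for the range of gaps between DMSO samples (-0.06 to 0.06). LAQ824, WT161, SGC-CBP30, Bromosporin and N1302 lie left of the band at each dose measured.

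Some samples had a trend over the whole range of gene lengths. In UNC0638 at the high dose the gap was 0.30, but the members had barely moved (median change 0.05) and the shorter genes of similar level had a median change of -0.28. Across span classes the median change there went from -0.41 in genes under 10 kb to 0.05 in genes of 500 kb or more, and at the low dose the gap was -0.05. GSKJ4 (0.19), LSD-690 (0.18) and Trametinib (0.18) had positive gaps at the high dose and values of 0.01, 0.05 and 0.09 at the low dose. In SGC-CBP30 at the high dose, by contrast, the median change was 0.10 in genes of 50 to 100 kb, 0.06 in those of 100 to 200 kb, -0.07 in those of 200 to 500 kb and -0.27 in the long genes. In LAQ824 at the high dose it was -0.04 at 50 to 100 kb, -0.20 at 100 to 200 kb and -0.30 in the long genes. Inside the long genes the span classes were counted over the 146 members with 1 TPM or more and a long annotated gene. At both doses of LAQ824, SGC-CBP30, Bromosporin and WT161 the median change was higher in the longest class than in the shortest. The middle class was out of order in Bromosporin at the high dose and in WT161 at the low dose. In LAQ824 at the high dose the median change was -0.39 over the 87 members of 500 to 750 kb, -0.30 over 36 of 750 to 1000 kb and -0.06 over 23 of 1000 kb or more. In SGC-CBP30 at the high dose the same classes gave -0.43, -0.22 and -0.18, in Bromosporin -0.53, -0.19 and -0.29, and in UNC0638 0.02, 0.07 and 0.21.

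**Figure D2:**
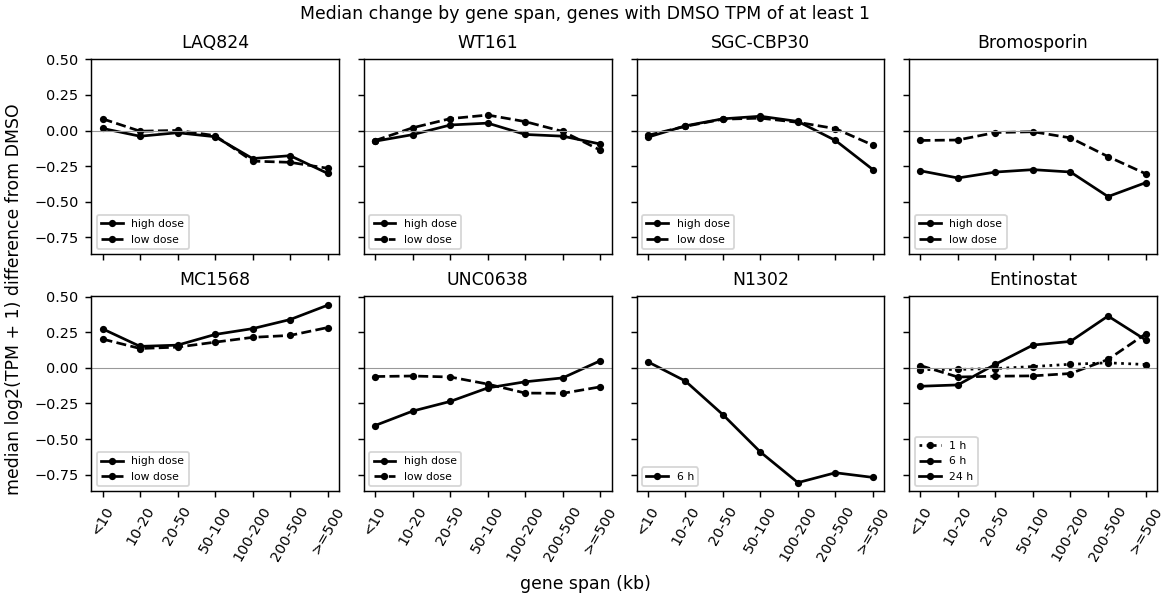
Median change from DMSO (vertical axis, log2(TPM + 1)) is plotted against gene span class from under 10 kb to 500 kb or more for selected samples. The classes are not matched for expression level. The lines of SGC-CBP30 and LAQ824 turn down in the longest classes, N1302 falls from 0.04 to -0.81 at 100 to 200 kb, and UNC0638 at the high dose rises from -0.41 to 0.05.

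Single genes were tested with limma on log2(TPM + 1) over all 16359 genes, with Benjamini-Hochberg adjustment. A gene was called where the adjusted p was below 0.05 and the change from DMSO at least 2-fold, and only called genes are said below to have risen or fallen. Fold changes are on the log2(TPM + 1) scale, which understates those of low genes. In all 113 calls fell on 62 distinct members, and the shares of all genes called are given below by compound. No called member overlapped the range of the 4 DMSO samples. A 2-fold call against close DMSO values makes this likely in advance, and it was not counted over all genes. With the length trend of each compound removed 70 of the 113 calls were kept. Counts of members under such other settings are mostly given below without the share of all genes. They do not separate the members from a change in all calls.

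The pan-HDAC inhibitor LAQ824 lowered more long genes than it raised. It lowered 25 of the 210 members, or 11.90%, against 11.7% of all tested genes, and raised 9, or 4.29%, against 14.0%. The share that fell was thus close to that of all genes, and it was the share that rose that was small. The median change was -0.20 over the members and 0.06 over all genes. IL1RAPL2 (chrX:103810996-105011822 in hg19, 1200.8 kb), an interleukin-1 receptor-like protein of synapses, was at 17.3, 18.0, 20.2 and 19.5 TPM in DMSO and at 0.960 and 1.11 TPM in the high and low doses. Both treated samples lay far below all DMSO samples. On the log2 scale IL1RAPL2 fell by 3.28 with an SE of 0.49 (adjusted p = 2.5e-06). LUZP2 (chr11:24518516-25104186, 585.7 kb), a leucine zipper protein, went from 19.7, 19.8, 25.3 and 24.7 TPM to 3.57 and 2.86 TPM and fell by 2.47 on that scale with an SE of 0.32 (adjusted p = 2.3e-07). SLC24A3 (chr20:19193290-19703541), which exchanges sodium for calcium and potassium, went from 26.0, 23.8, 26.6 and 25.3 TPM to 4.27 and 3.92 TPM (log2 fold change -2.37). ELMO1 (chr7:36892511-37488929) went from 79.5, 81.4, 82.8 and 86.7 TPM to 14.1 and 16.3 TPM (log2 fold change -2.37). In all 4 the doses, 10-fold apart, gave close values.

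A few long genes rose in LAQ824. PCDH9 (chr13:66876966-67804468, 927.5 kb), a protocadherin of cell contacts, was at 5.13, 5.13, 5.04 and 5.69 TPM in DMSO and at 32.2 and 28.3 TPM with LAQ824, a rise of 2.32 on the log2 scale with an SE of 0.26 (adjusted p = 2.3e-08). DPYD (chr1:97543300-98386615), the first enzyme of pyrimidine breakdown, went from 7.57, 6.42, 6.90 and 7.28 TPM to 22.1 and 21.9 TPM (log2 fold change 1.52). ADGRV1, a very large adhesion receptor, went from 0.769 to 0.878 TPM in DMSO to 4.55 and 4.10 TPM (1.54), a level at which the scale understates the change. ST6GALNAC3, a sialyltransferase, went from 11.4 to 13.4 TPM to 38.9 and 34.9 TPM (1.52). After removal of the length trend 13 members were called higher and 17 lower, so the excess of lower calls shrank.

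The RefSeq promoters of 2 members that fell and 2 that rose in several compounds are shown so that genes of opposite direction can be set side by side. They were chosen after their values were seen. Each runs from 250 bases before to 50 after the RefSeq start in GRCh38.p14, and capitals mark CpG sites. IL1RAPL2 (chrX:104565949-104566248, plus strand) holds 17 CpG at 55.7% GC and LUZP2 (chr11:24496803-24497102, plus strand) holds 38 at 71.7% GC. PCDH9 (chr13:67230287-67230586, minus strand) holds 20 at 65.7% GC and DPYD (chr1:97920985-97921284, minus strand) holds 29 at 70.3% GC.
IL1RAPL2: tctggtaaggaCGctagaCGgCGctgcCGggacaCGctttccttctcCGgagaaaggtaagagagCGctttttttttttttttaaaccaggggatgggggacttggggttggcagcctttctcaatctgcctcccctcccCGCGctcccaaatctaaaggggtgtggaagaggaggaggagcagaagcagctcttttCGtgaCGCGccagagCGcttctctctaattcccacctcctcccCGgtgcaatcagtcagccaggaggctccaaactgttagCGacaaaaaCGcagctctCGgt
LUZP2: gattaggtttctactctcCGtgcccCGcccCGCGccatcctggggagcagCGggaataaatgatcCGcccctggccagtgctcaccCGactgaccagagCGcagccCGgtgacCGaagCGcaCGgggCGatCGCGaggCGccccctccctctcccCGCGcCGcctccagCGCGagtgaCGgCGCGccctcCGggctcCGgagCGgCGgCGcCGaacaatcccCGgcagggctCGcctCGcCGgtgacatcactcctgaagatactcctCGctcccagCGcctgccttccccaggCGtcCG
PCDH9: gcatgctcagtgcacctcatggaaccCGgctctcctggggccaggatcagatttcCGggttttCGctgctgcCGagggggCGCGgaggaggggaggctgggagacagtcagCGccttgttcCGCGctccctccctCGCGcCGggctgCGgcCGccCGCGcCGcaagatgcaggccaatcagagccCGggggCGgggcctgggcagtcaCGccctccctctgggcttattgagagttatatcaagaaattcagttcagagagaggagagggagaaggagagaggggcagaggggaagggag
DPYD: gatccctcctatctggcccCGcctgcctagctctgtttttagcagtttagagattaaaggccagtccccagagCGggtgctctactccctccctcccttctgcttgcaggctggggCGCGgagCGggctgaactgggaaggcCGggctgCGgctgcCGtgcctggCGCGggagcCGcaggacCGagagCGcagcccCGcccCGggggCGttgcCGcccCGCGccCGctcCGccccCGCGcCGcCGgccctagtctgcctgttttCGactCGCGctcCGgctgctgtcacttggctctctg
As many CpG sites or more are held by 46.0%, 9.7%, 41.2% and 24.0% of all RefSeq promoters of this length, in that order. Bases were searched on both strands for the E-box letters CAGCTG and for the E-box CACCTG, of the kind that MYOD1 and MYOG bind, and for the TATA box TATAAA, and none of the 4 promoters holds any of them. Either E-box is found in 34.3% of the 27305 promoters of the table and in 26.4% of the 159 promoters that matched tested members, and the TATA box in 12.0% and 6.9%. All 4 hold more CpG sites than the median promoter of the table, which holds 14.

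With WT161, labelled as an HDAC6 inhibitor, 5 members rose (2.38%, against 5.48% of all genes) and 9 fell (4.29%, against 5.20%). The members' median change was -0.08 and that of all genes 0.03. IL1RAPL2 fell to 0.659 TPM at 10 µM and 7.14 TPM at 1 µM (log2 fold change -2.43), SLC24A3 to 4.28 and 8.64 TPM (-1.89), ELMO1 to 18.6 and 35.0 TPM (-1.65) and LUZP2 to 5.27 and 9.04 TPM (-1.55). The high dose gave the lower level of each of these genes, while in LAQ824 it did so for IL1RAPL2 and ELMO1 but not for SLC24A3 and LUZP2. PCDH9 rose to 30.6 and 11.2 TPM (1.65), DPYD to 20.1 and 14.8 TPM (1.19), NBEA, a scaffold of membrane traffic, to 20.5 and 12.6 TPM (1.15) from 6.52 to 6.91 TPM, and ST6GALNAC3 to 36.9 and 21.2 TPM (1.14). Fits with 1 dose alone, in which the lone sample is assumed to vary like the other groups, called 0 members higher and 5 lower for the low dose and 8 and 15 for the high dose. With the other compounds of the flow cell as reference in place of DMSO, 4 members were called higher and 4 lower. The RYR3 call (-1.01) was lost without 0.2% DMSO replicate 1.

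With Bromosporin, a ligand of many bromodomains, 2 members rose (0.95%, against 4.21% of all genes) and 29 fell (13.81%, against 9.18%). The median change was -0.28 over the members and -0.12 over all genes. IL1RAPL2 fell to 0.636 TPM at the high dose and 3.67 TPM at the low dose (-2.84 with an SE of 0.49, adjusted p = 5.8e-05). LUZP2 fell to 2.17 and 4.37 TPM (-2.49), ELMO1 to 9.48 and 28.3 TPM (-2.25) and SLC24A3 to 3.12 and 6.85 TPM (-2.21). The 2 members that rose were PCDH9, to 27.0 and 14.6 TPM (1.75), and GRM7, a metabotropic glutamate receptor, to 4.15 and 1.82 TPM (1.20) from 0.493 to 0.805 TPM. After that trend was removed 8 members were called higher and 14 lower, with median-ratio scaling 2 and 22, and against the other compounds of the flow cell 2 and 25. As a lone sample, on the same assumption as for WT161, the low dose had 15 members called lower, 14 of them among the 29, and the high dose 39. Median-ratio scaling moved the median of all genes by 0.12 and changed the split of all calls from 689 higher and 1501 lower to 875 and 1198.

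With SGC-CBP30, 1 member rose (0.48%, against 0.159% of all genes) and 12 fell (5.71%, against 1.76%). The median change was -0.14 over the members and 0.03 over all genes. LUZP2 was at 2.44 TPM at the high dose and 13.7 TPM at the low dose (log2 fold change -1.71, adjusted p = 0.00099) and ELMO1 at 16.2 and 54.5 TPM (-1.44, adjusted p = 0.0027). IL1RAPL2 was at 1.35 and 15.8 TPM (-1.65, adjusted p = 0.032), and this call was lost without any 1 of 3 of the 4 DMSO samples (0.2% replicate 2, 0.1% replicate 1 or 0.1% replicate 2). RYR3 (chr15:33603163-34158304), a calcium release channel of the sarcoplasmic reticulum, was at 28.7, 27.8, 26.6 and 26.3 TPM in DMSO and fell to 7.65 and 13.5 TPM (-1.34, adjusted p = 3.2e-05). The member called higher was LOC103908605 (1.26), one of the rows without a long annotated gene. Fitted as a lone sample, with its spread taken from the other groups, the high dose had 34 members called lower and the low dose 0. A fit of its own samples and DMSO only called 4. The SLC24A3 call (-1.02) was lost without 0.1% DMSO replicate 1, and that of LOC103908605 without either replicate 2 of DMSO. With the length trend removed 8 stayed below DMSO by the same criteria, and against the other compounds of its flow cell 0 did. These counts for other fits stand without the share of all genes.

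IL1RAPL2, LUZP2, ELMO1, SLC24A3, PTPRT and RELN were the 6 members called lower in all of LAQ824, WT161, Bromosporin and SGC-CBP30. In a fit of the SGC-CBP30 and DMSO samples only, RELN alone of these 6 was still called. The PTPRT call in WT161 was also lost in such a fit. PTPRT, a receptor tyrosine phosphatase, was at 24.4, 23.1, 26.9 and 25.5 TPM in DMSO and fell to 5.61 and 5.38 TPM in LAQ824, 5.76 and 8.67 TPM in Bromosporin, 6.63 and 18.5 TPM in WT161, and 5.19 and 17.8 TPM in SGC-CBP30. RELN, a secreted protein that guides migrating neurons, was at 12.3, 12.6, 15.5 and 15.3 TPM and fell to 3.33 and 3.57, 3.94 and 3.38, 4.90 and 6.50, and 3.00 and 7.88 TPM in the same compounds. In the other 16 compounds IL1RAPL2 ranged from 9.74 TPM (MC1568, high dose) to 33.7 TPM (Trametinib, low dose), and LUZP2 from 16.4 to 35.5 TPM. PCDH9 was called higher in 3 compounds, and in the other samples outside SGC-CBP30 it ranged from 2.08 TPM (Cpd50, high dose) to 12.3 TPM (MC1568, high dose). Of the 62 called members, 31 were called in 2 or more compounds. Calls shared between compounds were not counted over all genes, and the compounds share their DMSO samples.

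**Figure D3:**
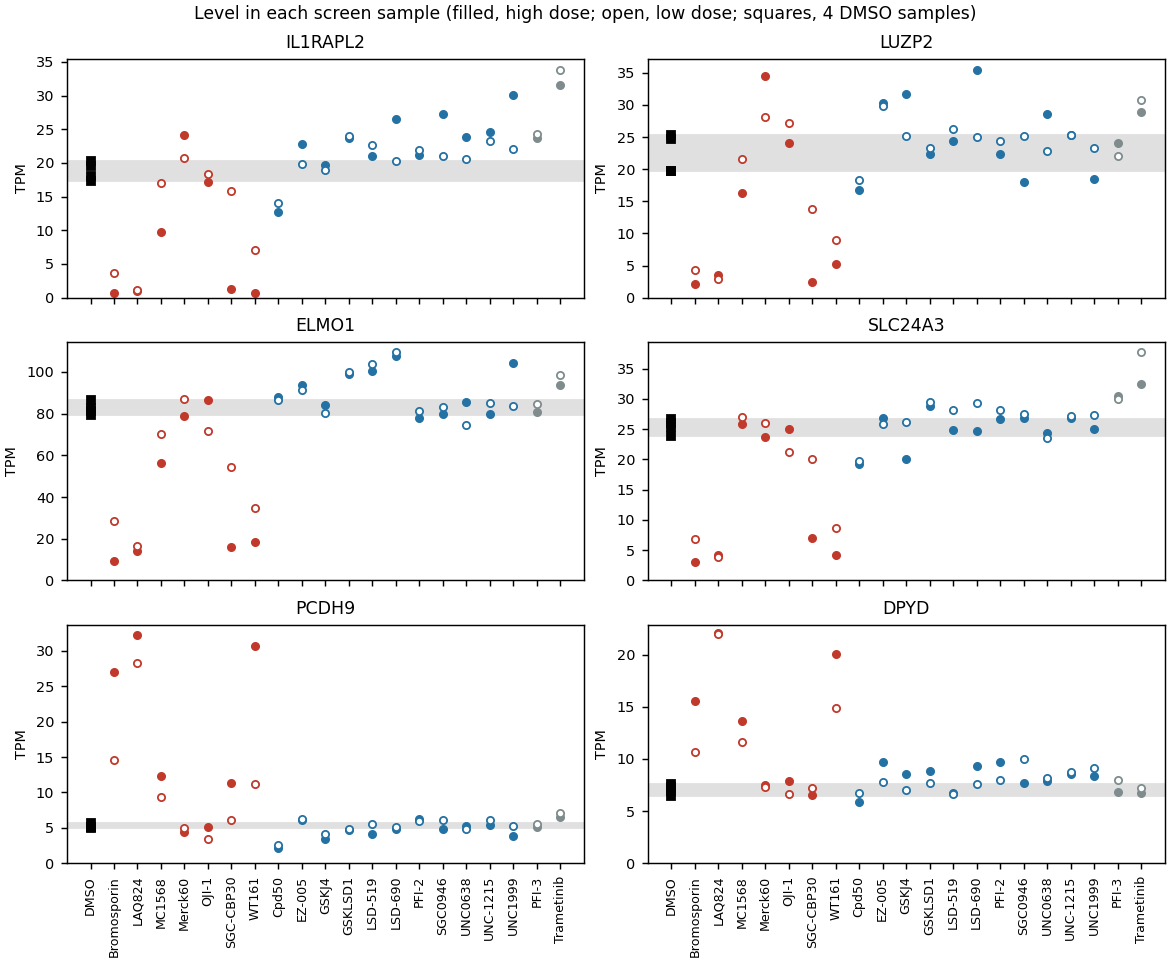
TPM of IL1RAPL2, LUZP2, ELMO1, SLC24A3, PCDH9 and DPYD is plotted for every screen sample by compound, with DMSO beside them. The grey band is the range of the 4 DMSO samples, filled circles are high and open circles low doses. The first 4 genes sit low in LAQ824, WT161, Bromosporin and SGC-CBP30 (IL1RAPL2 0.960 and 1.11 TPM in LAQ824 against 17.3 to 20.2 TPM in DMSO), and PCDH9 and DPYD are high in LAQ824 and WT161.

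**Figure D4:**
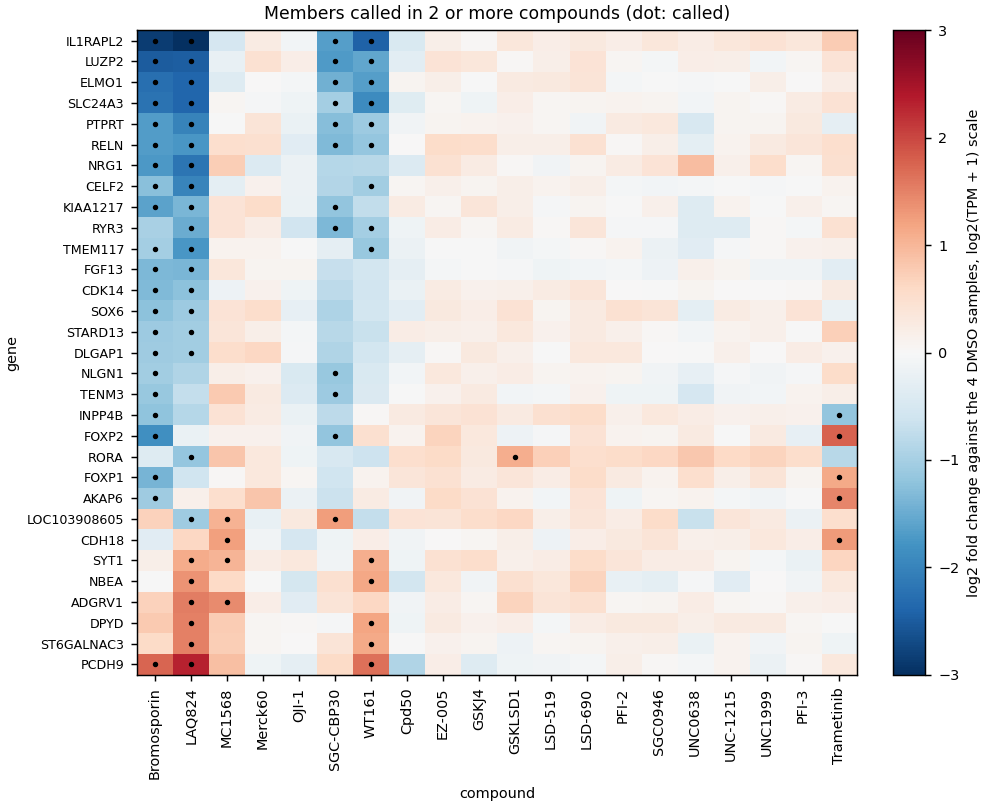
Log2 fold changes (colour scale, log2(TPM + 1)) of the 31 members called in 2 or more compounds are shown by compound, with colours ending at 3 in each direction and dots for calls. Most dots lie in the columns of LAQ824, Bromosporin, WT161 and SGC-CBP30.

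Some members fell in Bromosporin and SGC-CBP30 without being called in LAQ824. FOXP2, a forkhead transcription factor, was at 7.32 to 9.61 TPM in DMSO and fell to 0.668 and 3.36 TPM in Bromosporin (log2 fold change -1.84) and to 1.91 and 5.27 TPM in SGC-CBP30 (-1.18). Its change in LAQ824 was -0.21 and did not pass the test. TENM3, an adhesion protein of the teneurin family, fell in both (-1.13 and -1.09), as did NLGN1, a synaptic adhesion protein (-1.04 and -1.14). In LAQ824 TENM3 and NLGN1 changed by -0.71 and -0.91, short of the 2-fold limit. AUTS2, PTPRD and ANK2 fell in LAQ824 by 1.66, 1.26 and 1.05 and were called in it alone of these 4 compounds. In WT161, Bromosporin and SGC-CBP30 AUTS2 changed by -0.97, -0.14 and -0.35, and PTPRD by -0.65, -0.40 and -0.80. Whether these changes differed between the compounds was not tested. These genes were chosen after their values were seen.

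Among the other acetylation compounds MC1568, labelled for HDAC4/5, raised 8 members (3.81%, against 7.41% of all genes) and lowered 0, with 109 at an unadjusted p below 0.05 in either direction. Of all 16359 genes MC1568 called 5 lower. The median change was 0.36 over the members and 0.26 over all genes, and the gap was near 0. ADGRV1 rose to 5.00 and 2.94 TPM (1.41) and CDH18, a cadherin, to 3.66 and 2.83 TPM from 0.757 to 0.859 TPM (1.23). With the length trend removed 1 of the 8 was called. OJI-1 lowered 1 member, LOC100288162, a row without a long annotated gene, at 12.9 and 7.16 TPM against 19.3 to 23.3 TPM (-1.06), beside 0.0917% of all genes called lower. The call was lost without any 1 of 3 of the 4 DMSO samples (0.2% replicate 1, 0.1% replicate 1 or 0.1% replicate 2). For Merck60, an HDAC1/2 inhibitor, limma called 0 members, beside 0.0611% of all genes, with 16 at an unadjusted p below 0.05.

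The methylation compounds raised 5 members and lowered none by limma. Of all 16359 genes UNC0638 called 507 lower, GSKLSD1 5, LSD-690 14 and Cpd50 19. The member raised in UNC0638 was SOX5, a transcription factor of cartilage and glia, at 3.70 and 1.84 TPM against 0.602 to 1.18 TPM (log2 fold change 1.02), beside 1.30% of all genes called higher. In GSKLSD1 they were RORA, a nuclear receptor, at 25.3 and 26.0 TPM against 10.1 to 12.6 TPM (1.10), and BMS1P22 (1.18), a row without a long annotated gene, beside 1.25% of all genes. In LSD-690 it was MCTP1, a calcium-binding membrane protein, at 2.22 and 1.79 TPM against 0.422 to 0.566 TPM (1.01), beside 0.691%. In Cpd50 it was DSCAM, a neuronal adhesion molecule, at 4.0 and 3.02 TPM against 0.497 to 0.965 TPM (1.38), beside 2.21%. RORA fell in LAQ824 (-1.17). The SOX5 call was lost without 0.2% DMSO replicate 1, and those of BMS1P22 and MCTP1 without either of 2 DMSO samples. UNC0638, GSKLSD1 and LSD-690 were sequenced on flow cells without a DMSO sample, which cannot be told apart from the treatment.

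In the other methylation compounds limma called 0 members, beside 0.257% of all genes in PFI-2 (26 members at an unadjusted p below 0.05), 0.122% in SGC0946 (25), 0.0978% in EZ-005 (24), 0.0856% in UNC1999 (21), 0.489% in LSD-519 (22), 0.00611% in GSKJ4 (13) and 0.0489% in UNC-1215 (19). In PFI-3 limma called 0 members beside 0.0245% of all genes, with 19 at an unadjusted p below 0.05.

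Trametinib, which blocks the kinase MEK downstream of RAS, raised 6 members (2.86%, against 0.721% of all genes) and lowered 1 (0.48%, against 0.831%). FOXP2 rose to 31.0 and 32.5 TPM (1.76 with an SE of 0.27, adjusted p = 0.00011), the opposite direction from Bromosporin and SGC-CBP30. AKAP6, which anchors protein kinase A in muscle, rose to 9.59 and 8.46 TPM from 2.45 to 2.91 TPM (1.45), and it had fallen in Bromosporin (-1.07). FOXP1, CDH18, ROBO2 and ANK3 rose by 1.13, 1.28, 1.03 and 1.06, and the ROBO2 call was lost without 0.1% DMSO replicate 1. INPP4B, a phosphoinositide phosphatase, fell to 5.36 and 3.18 TPM from 10.2 to 11.5 TPM (-1.18, adjusted p = 0.016), a call not made with the high dose alone. Without its length trend 3 members were called higher and 2 lower, and against the other compounds of the flow cell 2 and 0.

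Genes of known role were counted by list, and the counts stand beside the shares of all genes called: 14.0% higher and 11.7% lower in LAQ824, 4.21% and 9.18% in Bromosporin, 1.76% lower in SGC-CBP30, 7.41% higher in MC1568 and 0.721% higher in Trametinib. No list was tested as a list. Of 21 tested genes of cell adhesion and axon guidance, LAQ824 called 2 higher (PCDH9 and ROBO1) and 1 lower (RELN), Bromosporin 1 higher and 3 lower, SGC-CBP30 3 lower, and MC1568 3 higher, with medians of 0.08, -0.00, -0.11 and 0.55. ROBO1 went from 86.0 to 89.6 TPM in DMSO to 193 and 188 TPM in LAQ824. Of 13 tested transcription factors and chromatin genes, LAQ824 called 3 lower, Bromosporin 3 lower, SGC-CBP30 2 lower and Trametinib 2 higher, with medians of -0.44, -0.59, -0.48 and 0.13. Of 17 tested signalling enzymes and scaffolds, LAQ824 called 3 lower and 1 higher and Bromosporin 3 lower, with medians of -0.65 and -0.60. Of the 6 receptor tyrosine phosphatases, LAQ824 called PTPRT and PTPRD lower, and PTPRD went from 61.1 to 67.7 TPM to 26.0 and 27.2 TPM. WT161, Bromosporin and SGC-CBP30 called PTPRT only.

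In the muscle list 1 of 3 tested genes was called. The dystrophin gene DMD (chrX:31137345-33357726, 2220.4 kb), whose protein ties the cytoskeleton to the muscle membrane, had a mean of 15.4 TPM in DMSO and changes of -0.19 in LAQ824, -0.73 in Bromosporin and -0.81 in SGC-CBP30, none called. Its smaller relative UTRN (23.1 TPM) changed by -0.69 in LAQ824 and was not called, and RYR3, the other tested gene of this list, was called lower in LAQ824 (-1.48), WT161 (-1.01) and SGC-CBP30. Of 11 tested genes of common fragile sites, LAQ824 and WT161 called 1 higher each, DPYD, and none was called lower in any of these compounds, with medians of 0.04 and 0.03.

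Of 38 tested genes that act on transcription elongation, which are not members, LAQ824 called 3 higher and 5 lower, WT161 1 and 2, Bromosporin 3 and 4, and the other compounds none. For LAQ824 these counts stand beside 14.0% of all genes called higher and 11.7% lower, for WT161 beside 5.48% and 5.20%, and for Bromosporin beside 4.21% and 9.18%. NELFCD, a subunit of the pausing factor NELF, fell in LAQ824 (-1.81), WT161 (-1.43) and Bromosporin (-1.55). SFPQ, a splicing factor known to act in long introns, fell in LAQ824 (-1.44) and WT161 (-1.05), and CDK12, CDK13 and TOP2B fell in LAQ824 (-1.33, -1.12 and -1.06). HEXIM1, which holds P-TEFb inactive, rose in Bromosporin (2.54) and LAQ824 (1.58). SGC-CBP30 called none of the 38. The part of these genes in the members' changes was not tested.

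The N1302 experiment, with 1 sample per group and no replicate check, gave the lowest gap, -0.61 over 154 members, and 76.0% of them lay below the shorter genes. At least 2-fold lower were 58 of 210 members (27.6%, against 19.3% of all genes), and 3 were at least 2-fold higher (1.43%, against 11.6%). IL1RAPL2 was at 28.9 TPM in DMSO and 1.48 TPM in N1302 (868 and 31 reads), and LUZP2 at 28.3 and 1.48 TPM (1507 and 55 reads). CELF2 was at 94.2 and 10.8 TPM and INPP4B at 19.6 and 1.79 TPM. Among members with 2 TPM or more in either sample, DNM3, a dynamin, was higher with N1302 at 3.21 and 7.81 TPM (1.06 on the log2 scale), and below 2-fold were ADK, adenosine kinase, at 52.1 and 101 TPM (0.94) and SMYD3, a methyltransferase, at 16.3 and 30.5 TPM (0.87). The row BMS1P22 (0.448 and 2.99 TPM) rests on 3 and 14 reads. The median change was already -0.33 in genes of 20 to 50 kb and -0.81 in those of 100 to 200 kb, and stayed at -0.77 in the long genes. Among the members it was -0.43 at 1 to 5 TPM, -0.82 at 5 to 20 TPM and -1.13 above 20 TPM.

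In the entinostat time course, again with 1 sample per group, the long genes were higher more often than lower at 24 h. After 1 h, 0 of 210 members were 2-fold higher (against 0.660% of all genes) and 1 was 2-fold lower (0.48%, against 0.581%). After 6 h, 11 were higher (5.24%, against 5.13%) and 0 lower (against 0.947%). After 24 h, 46 were higher (21.9%, against 16.4%) and 10 lower (4.76%, against 6.06%). The gap stayed near 0 throughout, at 0.03, 0.09 and -0.05. At 6 h and the same dose of 1 µM the gaps of N1302 and entinostat were thus -0.61 and 0.09, and with 1 sample each their difference was not tested.

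IL1RAPL2 was at 68.6 TPM in DMSO and 81.3 TPM with entinostat at 1 h, 64.7 and 35.9 TPM at 6 h, and 72.7 and 2.36 TPM at 24 h. It was thus still high at 1 h and lowest at 24 h. At 24 h ELMO1 was at 61.2 and 16.4 TPM, SLC24A3 at 22.5 and 5.44 TPM and RYR3 at 9.50 and 2.73 TPM. Higher at 24 h were FSTL5, a follistatin-like protein, at 0.176 and 9.52 TPM (11 and 548 reads), NRXN3, a presynaptic adhesion protein, at 0.244 and 6.75 TPM, and SYT1, a calcium sensor of vesicle release, at 4.92 and 30.9 TPM. At 6 h THSD4 was at 4.56 and 16.1 TPM, DLGAP1 at 1.5 and 5.31 TPM, AKAP6 at 3.90 and 10.3 TPM and CREB5 at 9.14 and 22.2 TPM, while AUTS2 was lower at 45.2 and 29.3 TPM. At 1 h the largest differences, apart from IL1RAPL2, belonged to rows without a long annotated gene, such as FAM45BP (-1.31) and LOC642423 (0.49).

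**Figure D5:**
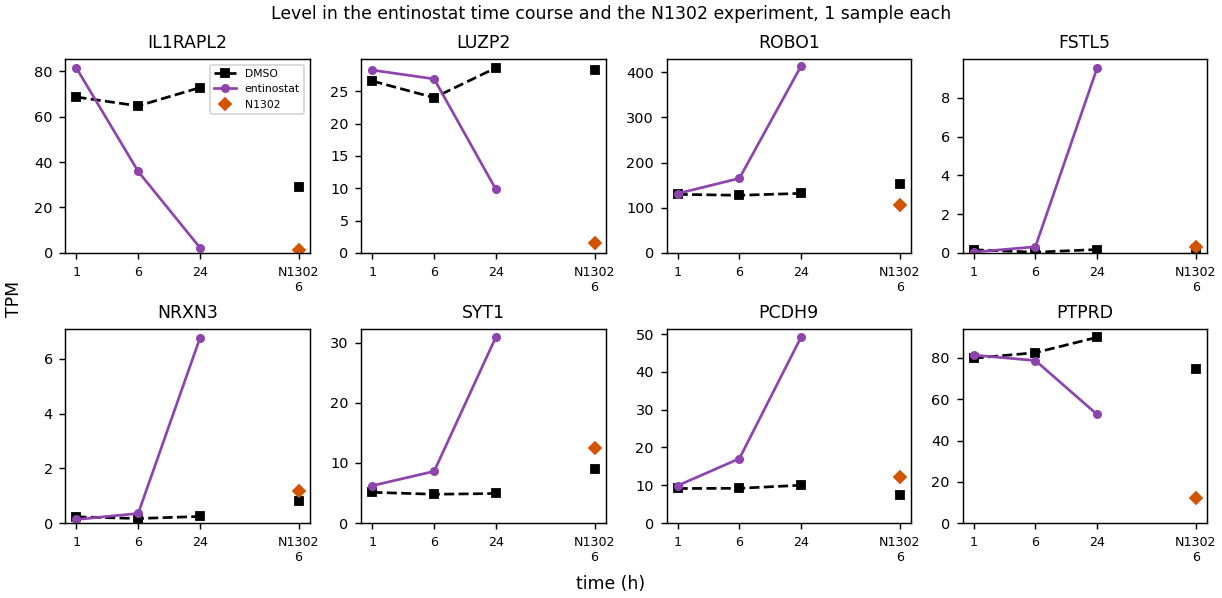
TPM (vertical axes, linear, each gene on its own scale) of IL1RAPL2, LUZP2, ROBO1, FSTL5, NRXN3, SYT1, PCDH9 and PTPRD is plotted for the entinostat time course at 1, 6 and 24 h and for N1302 at 6 h, each beside its own DMSO sample. IL1RAPL2 drops to 2.36 TPM with entinostat at 24 h while SYT1 reaches 30.9 TPM, and with N1302 IL1RAPL2 is at 1.48 TPM.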

How the data were processed

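RNA-seq of 52 samples was analysed. Paired-end reads of poly-A RNA were mapped to hg19 by the authors using STAR, and RSEM then gave the deposited TPM, one value per gene normalised by the authors for transcript length and library size. Start and end of each row were also taken from these tables. Read numbers were recovered from the TPM steps: all 23645 genes above 0 gave whole reads within a tolerance of 0.01. The reads give 5737939 to 41415071 per sample, and precision is set by these counts.

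The length rule and the role lists were set with earlier results of these data known, although the rule itself used no expression value. TPM was analysed as log2(TPM + 1). Genes with 1 TPM or more in 2 samples were tested. limma 3.58.1 in R 4.3.3 (eBayes with trend, Benjamini-Hochberg over 16359 genes) compared the 2 doses of each compound with 4 DMSO samples in 1 fit of 44 samples. The length-trend alternative subtracted from each sample a lowess curve of its change against log span, fitted over all tested genes. The limma fit and the gap were tested on simulated data. Named members were the 10 highest in DMSO, the 4 largest called changes per direction for compounds with 10 or more called members and the 2 largest for others, for N1302 and entinostat the 4 largest differences per direction among members with 2 TPM or more, and the role-list members. One member that this rule names is not reported here. Any others named were chosen after their values were seen. Samples without replicates were given as values with no test. Promoters were taken from RefSeq GRCh38.p14 and matched by symbol. Alternatives were another pseudocount (0.1), filter, scaling, span, comparison genes, samples left out, a replicate block, reference samples and voom.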

Additional observations from a re-analysis of the deposited data

Results flagged for a closer look

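In 5 cases the gap of the long genes had opposite signs in samples of the same contrast. These differences were not tested, and there is 1 sample at each dose or time. Between the high and the low dose the gap was 0.056 and -0.0002 in LSD-519, 0.018 and -0.037 in MC1568, 0.011 and -0.19 in OJI-1, and 0.30 and -0.045 in UNC0638. In entinostat it was 0.093 at 6 h and -0.046 at 24 h. Over the compounds the SD between the 2 doses was 0.09.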

How the results depend on the processing

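Counts of called members, summed over the compounds of a set, were 76 lower and 25 higher for acetylation, 0 and 5 for methylation, and 1 and 6 for the other compounds. A pseudocount of 0.1 gave 135 and 64, 5 and 12, and 5 lower for the others. With it, lower calls in LAQ824 went from 25 members and 1914 of all 16359 genes to 42 and 2292. In Bromosporin they went from 29 and 1501 to 54 and 2270. The sums in this paragraph stand without the share of all genes, so they do not separate the members from a change in all calls. A mean of at least 5 TPM gave 14 higher for acetylation, 1 for methylation and 2 for the others. Removing the length trend gave 46 lower for acetylation, 1 lower and 3 higher for methylation, and 2 lower and 3 higher for the others. Spans of 1000 kb or more, with fewer members, gave 15 lower and 4 higher, 2 higher, and 0 lower and 1 higher. Leaving out 1 DMSO sample or 1 dose gave 46 to 112 lower and 17 to 44 higher for acetylation, 0 to 7 and 4 to 20 for methylation, and 0 to 2 and 5 to 6 for the others. With the other compounds of the flow cell as reference, 51 lower calls for acetylation became 29, 2 higher for methylation became 0, and 1 lower and 6 higher for the others became 0 and 2. voom, chosen after seeing the data, gave 141 and 79, 3 and 23, and 6 lower for the others. The cause of these shifts was not tested.

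The gap of spans of 1000 kb or more was -0.071 for acetylation (main -0.18), -0.45 for N1302 (main -0.61) and -0.22 for entinostat at 24 h (main -0.05). For N1302 it was -0.75 with the smaller pseudocount, -0.43 against genes of 50 to 100 kb and -0.51 against genes of similar transcript length, the last chosen after seeing the data. Among single compounds the gap, averaged over both doses, changed sign in Bromosporin (-0.19, and 0.11 at spans of 1000 kb or more), MC1568 (-0.01, range -0.05 to 0.05) and Cpd50 (0.02, range -0.01 to 0.10). The other results above kept their direction.

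Median-ratio scaling moved the median of all genes by 0.12 in Bromosporin, 0.11 in UNC0638 and 0.13 in Cpd50. Of the 113 calls, 100 were kept with median-ratio scaling, 109 with the smaller pseudocount, 105 with the high dose alone, 67 with the low dose alone and 92 without any 1 DMSO sample. Between 0.2% and 0.1% DMSO limma called 0 genes (1548 at an unadjusted p below 0.05), and with the replicate number as a block also 0 (1768). The pairing rests on 2 pairs, whose deviations correlated by 0.07. Low reads limit the members under 1 TPM.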

Other observations

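The DMSO levels of some long genes differed between the experiments, although the cell-line label is the same. IL1RAPL2 was at 17.3 to 20.2 TPM in the 4 screen DMSO samples, 28.9 TPM in the DMSO sample beside N1302 and 64.7 to 72.7 TPM in the DMSO samples of the time course. RYR3 was at 26.3 to 28.7, 2.67 and 6.84 to 9.50 TPM, and PTPRT at 23.1 to 26.9, 3.36 and 6.92 to 7.45 TPM. The experiments also differ in the title of the cell line and in the sequencing runs, and these cannot be told apart. No comparison above set 1 experiment's treated samples against another's DMSO, apart from 1 alternative for the gap. It set N1302 and entinostat at 6 h against the 6 h DMSO samples of both their experiments. The gaps were then -0.63 and 0.03, against -0.61 and 0.09 in the main setting.

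Among the members above 0 but not tested, the highest single values came from entinostat at 24 h. There MACROD2, a gene of a common fragile site, was at 2.33 TPM, GPC5, a glypican, at 2.08 TPM, MGAT4C at 2.04 TPM and PCDH15, a protocadherin, at 1.99 TPM. In the screen DMSO samples MACROD2, GPC5 and PCDH15 averaged 0.130, 0.168 and 0.169 TPM and MGAT4C was listed at 0. They reached 1 TPM in this sample only, have no test, and were chosen after their values were seen.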
